A study of Mus musculus with 10 samples.

Results

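Neuropeptide Y, somatostatin, cortistatin and the receptors through which they act were followed in the mouse hippocampus as 10 genes: the ligand genes Npy, Sst and Cort, the neuropeptide Y receptor genes Npy1r, Npy2r and Npy5r, and the somatostatin receptor genes Sstr1, Sstr2, Sstr3 and Sstr4. They were taken by gene symbol from a table of 52636 genes, and all 10 were present. The libraries were 5 of hippocampus from Tshr-/- mice and 5 from wild-type mice, all C57BL/6 at 3 months of age, described by the submitters as biological replicates. Tshr encodes the receptor for thyroid-stimulating hormone, and the loss of its function in mice is known to cause hypothyroidism. The labels name no treatment, hormone replacement, sex or targeted exon, and do not say whether a library came from a single animal. The 10 genes were proposed with differences between the genotypes already in view, so the set was selected on FPKM values of these same libraries and those differences are given as a description.

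Neuropeptide Y and somatostatin are peptide transmitters of hippocampal inhibitory (GABAergic) interneurons. They are released from dense-core vesicles and act on G protein-coupled receptors of the inhibitory Gi/o class, which lower cyclic AMP, open potassium channels of the GIRK type and reduce calcium entry. In the hippocampus both peptides are known for damping glutamate release and excitability, and many dendrite-targeting interneurons that contain somatostatin also contain neuropeptide Y. Cortistatin is a close relative of somatostatin and binds the same receptors.

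Levels are given in FPKM, fragments per kilobase of gene, scaled to a common library total, which corrects for gene length and library size. The FPKM values were whole multiples of what 1 read is worth, so the reads could be rebuilt: 25744854 to 28332278 per library in Tshr-/- and 23899650 to 33529811 in wild type, with 65 to 7324 reads for each of the 10 genes in each library. Tshr itself had 0, 0, 0, 5 and 2 reads in the Tshr-/- libraries and 9, 12, 7, 2 and 2 in the wild-type libraries, so it was close to the limit of detection in both. Markers of adjoining tissue differed between libraries. The mean of 7 neocortex markers on the log2 scale lay 0.83 above the mean of all libraries in Tshr-/- library 5, and between -0.34 and 0.21 in the other 9 libraries. The mean of 10 thalamus and habenula markers lay 1.19, 1.87, 0.53 and 1.01 above it in Tshr-/- libraries 1 and 2 and wild-type libraries 2 and 5, and below it in the others. Choroid plexus markers stood 4.07 above the mean in Tshr-/- library 4.

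The 250 bases upstream of the annotated start of the 3 ligand genes and of Sstr2 are shown because the rat somatostatin gene is where the cyclic AMP response element (CRE), the site bound by CREB-family factors, was first characterised. Capitals mark the palindromic CRE TGACGTCA, or in Cort the shorter core TGACG read on the opposite strand. The sequences come from RefSeq (GRCm38.p6, the mm10 build) and run 5′ to 3′ on the strand of the gene.
Npy, chr6:49822460-49822709, plus strand: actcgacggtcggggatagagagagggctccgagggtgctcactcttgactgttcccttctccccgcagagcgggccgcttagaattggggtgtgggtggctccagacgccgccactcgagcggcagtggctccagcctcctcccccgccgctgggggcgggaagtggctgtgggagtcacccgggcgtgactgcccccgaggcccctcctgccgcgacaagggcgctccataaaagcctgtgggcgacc
Sst, chr16:23890845-23891094, minus strand: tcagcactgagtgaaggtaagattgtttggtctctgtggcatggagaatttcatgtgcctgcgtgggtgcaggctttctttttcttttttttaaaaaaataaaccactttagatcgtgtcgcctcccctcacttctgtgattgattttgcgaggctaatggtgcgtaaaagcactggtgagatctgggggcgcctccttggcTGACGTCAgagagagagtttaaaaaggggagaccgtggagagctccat
Cort, chr4:149126764-149127013, minus strand: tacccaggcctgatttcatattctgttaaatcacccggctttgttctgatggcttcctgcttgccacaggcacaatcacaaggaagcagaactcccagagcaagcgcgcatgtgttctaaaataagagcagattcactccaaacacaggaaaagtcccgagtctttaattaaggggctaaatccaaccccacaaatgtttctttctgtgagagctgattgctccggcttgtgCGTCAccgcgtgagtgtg
Sstr2, chr11:113619077-113619326, plus strand: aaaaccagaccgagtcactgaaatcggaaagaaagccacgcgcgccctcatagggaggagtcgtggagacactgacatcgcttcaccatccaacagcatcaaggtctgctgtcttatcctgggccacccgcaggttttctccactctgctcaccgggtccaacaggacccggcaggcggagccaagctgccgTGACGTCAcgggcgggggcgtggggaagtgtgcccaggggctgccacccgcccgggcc
Among the 9 genes with an entry, the palindrome was found in Sst, starting 48 bases before the start, and in Sstr2, starting 58 bases before it. Of all 32851 upstream windows of this length, 508 (1.55%) held it. The core TGACG on either strand, which the palindrome also contains, was found in 4 of the 9 genes (Sst, Sstr2, Cort and a start of Sstr3) and in 5836 windows (17.8%). These matches describe the letters only, and no binding was measured.

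Npy (ENSMUSG00000029819, mm10 chr6:49822710-49829507, plus strand), which encodes the neuropeptide Y precursor, was lower in most Tshr-/- libraries. Its level was 55.4, 38.8, 49.7, 46.3 and 79.6 FPKM in Tshr-/- libraries 1 to 5, and 86.6, 71.5, 80.3, 86.6 and 81.7 FPKM in wild-type libraries 1 to 5. Tshr-/- libraries 1 to 4 lay below every wild-type library, and Tshr-/- library 5 lay within the wild-type range. The mean was 54.0 ± 15.5 FPKM in Tshr-/- and 81.4 ± 6.20 FPKM in wild type (SD, n = 5 each), 33.7% below wild type. In limma's moderated test on log2(FPKM + 0.1) across 15471 genes the difference was -0.63 ± 0.16 (log2, SE) with an adjusted p = 0.179, so it did not pass the threshold of 0.05. Without Tshr-/- library 5 the Tshr-/- mean was 47.5 ± 6.92 FPKM (n = 4) and the difference was -0.78 ± 0.10 (limma, adjusted p = 0.0359). The groups then did not overlap, which was fixed by leaving out the only Tshr-/- library within the wild-type range. This was 1 of 10 fits that each left out 1 library. The other fits gave limma adjusted p-values of 0.176 to 0.427. In a bulk sample, fewer cells of a type and less RNA per cell cannot be told apart.

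Sst (ENSMUSG00000004366, mm10 chr16:23889581-23890844, minus strand), the somatostatin precursor gene, carries the CRE shown above. It was measured at 271, 223.5, 307, 214 and 430.1 FPKM in Tshr-/- libraries 1 to 5, and at 399, 315.4, 363, 339 and 367 FPKM in wild-type libraries 1 to 5. As with Npy, Tshr-/- libraries 1 to 4 lay below all wild-type libraries, while Tshr-/- library 5 was above all of them. The mean was 289 ± 87.4 FPKM in Tshr-/- and 357 ± 31.5 FPKM in wild type (SD, n = 5 each). The log2 difference of -0.35 ± 0.17 did not pass (limma, adjusted p = 0.413). Leaving out Tshr-/- library 5, the only one not below all wild-type libraries, gave 254 ± 43.4 FPKM (n = 4) and so removed the overlap. The difference was then -0.50 ± 0.11, still short of the threshold (limma, adjusted p = 0.179).

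The balance of the ligand transcripts could be read within each library, where depth cancels. The ratio of Npy to Sst FPKM was 0.204, 0.174, 0.162, 0.2167 and 0.185 in Tshr-/- libraries 1 to 5, and 0.2170, 0.227, 0.221, 0.256 and 0.223 in wild-type libraries 1 to 5. The groups met without overlapping, since Tshr-/- library 4 lay just under wild-type library 1. No test was run on this ratio, which uses the FPKM values on which the genes were selected. How often ratios of other genes separate the groups was not counted. The mean ratio was 0.188 ± 0.0224 in Tshr-/- and 0.229 ± 0.0156 in wild type (SD, n = 5 each).

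Cort (ENSMUSG00000028971, mm10 chr4:149125034-149126763, minus strand), the cortistatin precursor gene, was the most variable of the 10. It had 4.83, 3.26, 4.38, 5.02 and 15.7 FPKM in Tshr-/- libraries 1 to 5, and 4.63, 5.01, 7.98, 7.08 and 11.9 FPKM in wild-type libraries 1 to 5. The groups overlapped, and Tshr-/- library 5 was the highest of all. The coefficient of variation was 77.2% in Tshr-/- and 40.0% in wild type. For Npy it was 28.8% in Tshr-/- and 7.62% in wild type. The log2 difference was -0.30 ± 0.39 (limma, adjusted p = 0.783), and -0.67 ± 0.26 without Tshr-/- library 5 (adjusted p = 0.293).

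**Figure D1:**
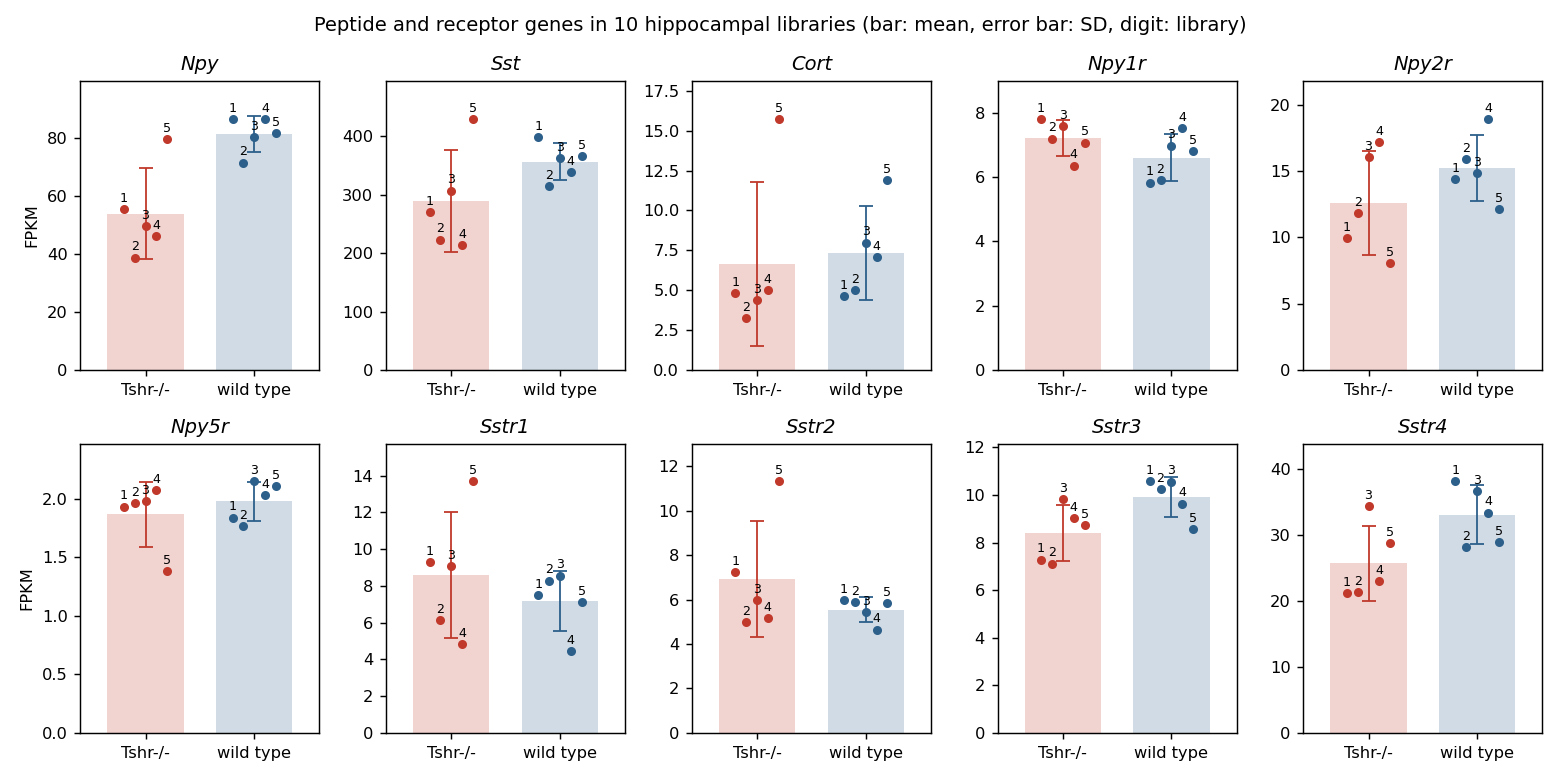
FPKM of each of the 10 genes in each library, in a panel per gene, with Tshr-/- libraries left of wild-type libraries and the group mean and SD marked. For Npy, 4 Tshr-/- libraries lie below all wild-type libraries and Tshr-/- library 5, at 79.6 FPKM, lies among them.

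The neuropeptide Y receptor genes showed small differences. Npy1r (ENSMUSG00000036437, chr8:66697192-66706792, plus strand), whose receptor mediates much of the postsynaptic action of the peptide, had 7.81, 7.20, 7.58, 6.36 and 7.07 FPKM in Tshr-/- libraries and 5.83, 5.91, 6.98, 7.51 and 6.80 FPKM in wild-type libraries. The groups overlapped, with a log2 difference of 0.13 ± 0.08 (limma, adjusted p = 0.541). Npy5r (ENSMUSG00000044014, chr8:66679965-66688128, minus strand) encodes a receptor best known for feeding and lies 9063 bases from Npy1r on the opposite strand. Its level was 1.87 ± 0.275 FPKM in Tshr-/- and 1.98 ± 0.167 FPKM in wild type (SD, n = 5 each), with a log2 difference of -0.09 ± 0.11.

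Npy2r (ENSMUSG00000028004, chr3:82538383-82548084, minus strand) encodes the receptor that acts on axon terminals, including as an autoreceptor. Its values were 9.94, 11.8, 16.1, 17.2 and 8.07 FPKM in Tshr-/- libraries and 14.4, 15.9, 14.8, 18.9 and 12.1 FPKM in wild-type libraries. Tshr-/- libraries 1, 2 and 5 lay below all wild-type libraries and libraries 3 and 4 among them. The log2 difference was -0.31 ± 0.20 (limma, adjusted p = 0.528).

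Among the somatostatin receptor genes, Sstr4 and Sstr3 were lower on average in Tshr-/- and Sstr1 and Sstr2 higher, and none of the 4 differences passed the adjusted threshold. Sstr4 (ENSMUSG00000037014, chr2:148395344-148396767, plus strand), whose receptor is abundant in hippocampal pyramidal cells of rodents, had 21.2, 21.3, 34.4, 23.0 and 28.7 FPKM in Tshr-/- libraries and 38.1, 28.2, 36.7, 33.4 and 29.0 FPKM in wild-type libraries. Tshr-/- libraries 1, 2 and 4 lay below all wild-type libraries. The log2 difference was -0.38 ± 0.14 (limma, adjusted p = 0.312).

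Sstr3 (ENSMUSG00000044933, chr15:78537015-78544345, minus strand) encodes the receptor that sits on the primary cilium of neurons. It had 7.29, 7.12, 9.83, 9.02 and 8.74 FPKM in Tshr-/- libraries and 10.6, 10.2, 10.6, 9.64 and 8.56 FPKM in wild-type libraries. Tshr-/- libraries 1 and 2 lay below all wild-type libraries and the others among them, and the log2 difference was -0.24 ± 0.10 (limma, adjusted p = 0.340).

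Sstr1 (ENSMUSG00000035431, chr12:58211772-58214444, plus strand), which is on the same chromosome as Tshr, had 9.31, 6.14, 9.06, 4.82 and 13.7 FPKM in Tshr-/- libraries and 7.51, 8.29, 8.56, 4.45 and 7.11 FPKM in wild-type libraries. The highest value was again in Tshr-/- library 5, and the log2 difference of 0.20 ± 0.27 became 0.01 ± 0.24 without it. Sstr2 (ENSMUSG00000047904, chr11:113619342-113626028, plus strand), whose receptor is the main target of the drug octreotide, had 7.23, 4.98, 5.96, 5.18 and 11.3 FPKM in Tshr-/- libraries and 5.97, 5.87, 5.43, 4.64 and 5.83 FPKM in wild-type libraries. Its log2 difference of 0.25 ± 0.20 became 0.06 ± 0.12 without Tshr-/- library 5. Sstr2 lies within the span of Slc39a11 on the opposite strand, and the named library kit does not mark strand, so reads where the genes overlap could have come from either.

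Across the 10 genes, 7 were lower and 3 higher on average in Tshr-/-, where 53.3% of all genes tested were lower, and 0 passed the adjusted threshold in limma. By the same rule 2 of 15471 genes (0.0129%) passed. An unadjusted p under 0.05 was found for Npy, Sstr3 and Sstr4, all lower, where 2015 genes (13%) had one in either direction 1296 (8.38%) of them lower and 719 (4.65%) higher. The limma voom test on the rebuilt reads also called 0 of the 10, with 3 at an unadjusted p under 0.05, and called 9 genes (0.0582%) in all. Those 3 were Npy and Sstr4, lower, and Npy1r, higher by 0.21 on the log2 scale, so Sstr3 was not among them. The share of all genes at that level in voom was not counted. The median log2 difference was -0.27 over the 10 genes and -0.01 over all genes tested. None of the 10 had groups without overlap, against 273 genes (1.76%) with every Tshr-/- library below and 141 (0.911%) above. For Npy and Sst, Tshr-/- library 5 was the only Tshr-/- library not below all wild-type libraries, so without it both lay lower without overlap. So did 452 of 15452 genes (2.93%), while 259 (1.68%) lay higher. Npy alone of the 10 was called in the limma fit without that library, among 9 genes (0.0582%).

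**Figure D2:**
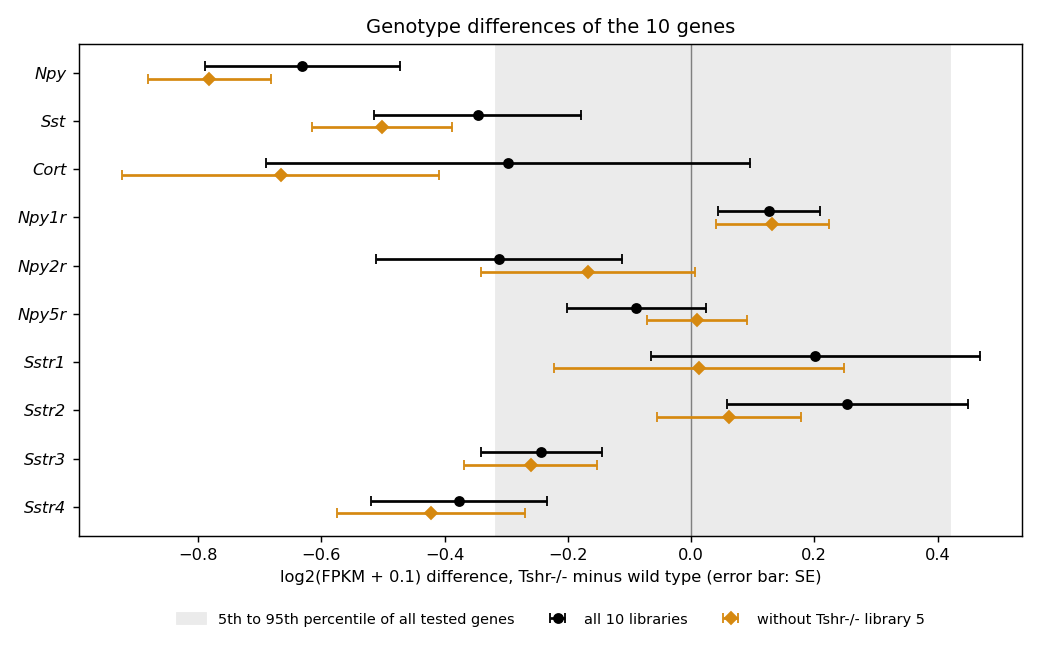
Log2 difference in FPKM, Tshr-/- minus wild type, with its standard error for each of the 10 genes, from all libraries and without Tshr-/- library 5, over a grey band from the 5th to the 95th percentile of all genes (-0.32 to 0.42). The difference of Npy is -0.63 with all libraries and -0.78 without that library.

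The order of the levels was read within each library. Sst, at 323 FPKM over the 10 libraries, ranked 71st of 15471 genes and Npy, at 67.7 FPKM, ranked 646th. Sstr4 followed at 29.4 FPKM, Npy2r at 13.9 FPKM, Sstr3 at 9.16 FPKM, Sstr1 at 7.89 FPKM, Cort at 6.99 FPKM, Npy1r at 6.90 FPKM, Sstr2 at 6.24 FPKM and Npy5r at 1.92 FPKM, against 5.05 FPKM for the median gene tested. Sst was above Npy by 2.27 ± 0.20 on the log2 scale in 10 of 10 libraries (SD; exact two-sided sign-flip permutation test, adjusted p = 0.0044 over 9 neighbouring pairs). The steps from Npy to Sstr4, from Sstr4 to Npy2r and from Sstr2 to Npy5r were also seen in 10 of 10 libraries, each with the same exact adjusted p = 0.0044. Npy2r was above Sstr3 in 9 of 10 libraries (exact adjusted p = 0.00703). The 4 steps between neighbours among Sstr3, Sstr1, Cort, Npy1r and Sstr2 did not pass, with exact adjusted p-values of 0.206 to 0.525. Pairs of these genes that are not neighbours in the order were not tested. Within 1 genotype the test cannot go below 0.0625.

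**Figure D3:**
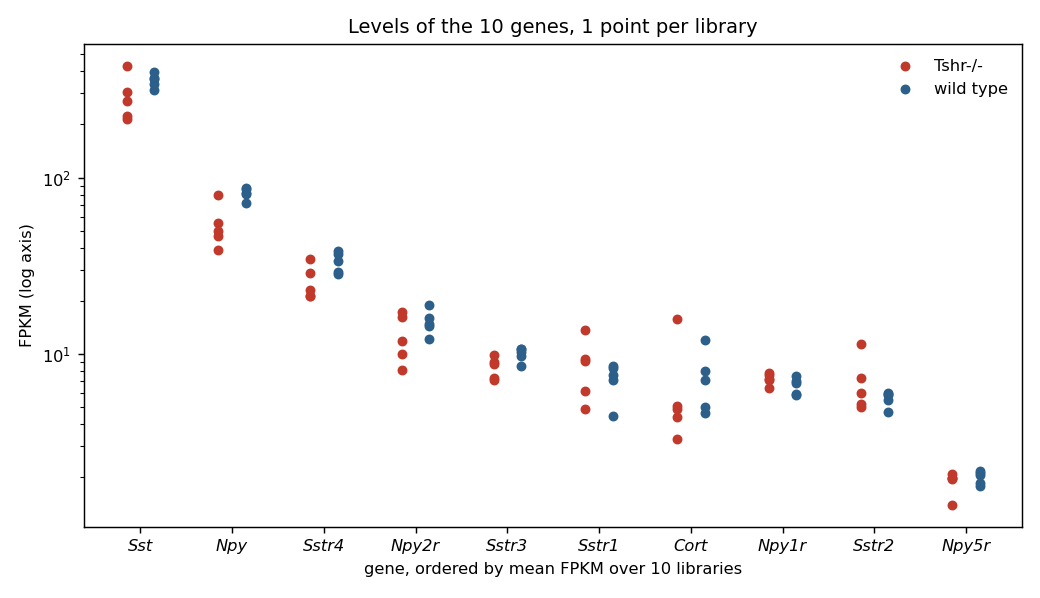
FPKM on a log axis for the 10 genes, ordered by mean over 10 libraries, with 1 point per library and Tshr-/- left of wild type. Sst, Npy, Sstr4 and Npy2r form descending steps, Npy5r is lowest at 1.92 FPKM, and the 5 genes between overlap.

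After the mean of each genotype was removed, 28 of the 45 pairs among the 10 genes were positively correlated over the 10 libraries. No pair passed an exact permutation test within genotype after adjustment (lowest adjusted p = 0.145). An unadjusted p under 0.05 was found for 9 pairs with Pearson's r and for 2 with Spearman's rho. Npy and Sst had r = 0.89 (permutation p = 0.0138) and rho = 0.67 (permutation p = 0.0587), and r = 0.85 (permutation p = 0.0833) without the 2 libraries farthest from the median of Npy. Leaving out Tshr-/- library 5 gave r = 0.65 for this pair, and regressing out the neocortex markers gave r = 0.37. Sstr3 and Sstr4 had r = 0.77 (permutation p = 0.029) and rho = 0.77 (permutation p = 0.0314), and r = 0.59 (permutation p = 0.124) without the 2 farthest libraries. Sstr2 and Npy5r had r = -0.85 (permutation p = 0.0215) and rho = -0.64 (permutation p = 0.0685), and r = -0.36 (permutation p = 0.332) without the 2 farthest. None of the 9 pairs kept an unadjusted p under 0.05 over the 8 libraries left without its 2 farthest.

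**Figure D4:**
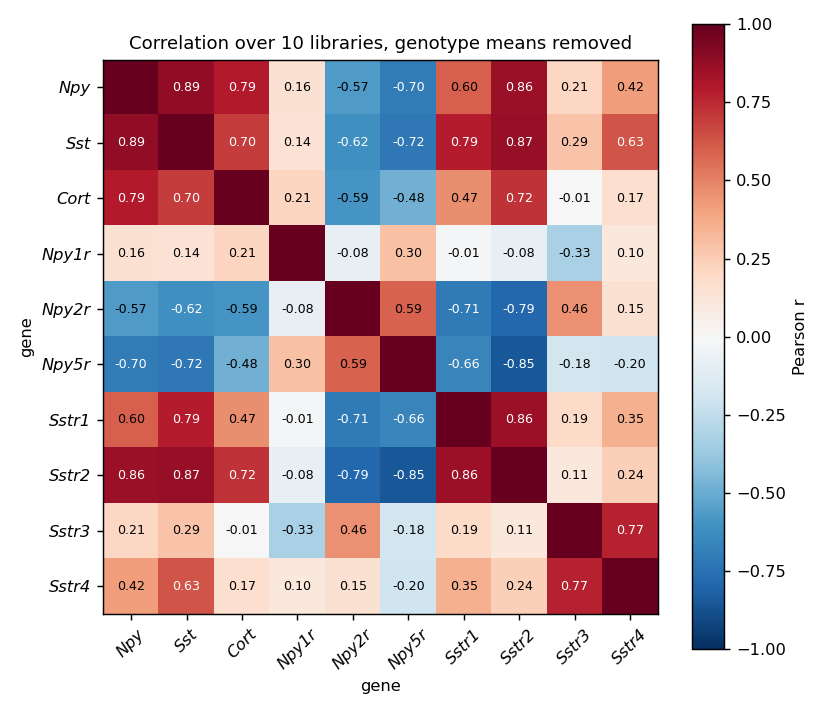
Pearson's r between the log2 levels of the 10 genes over 10 libraries with the genotype means removed, red for positive and blue for negative. Npy and Sst have r = 0.89, while Npy5r and Sstr2 have r = -0.85, and no pair passed after adjustment over 45 pairs.

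The 10 genes were also set against markers of adjoining tissue. Of 40 relations between the 10 genes and the neocortex, thalamus, choroid plexus and striatum lists, 0 passed after adjustment (lowest adjusted p = 0.0769) and 9 had an unadjusted permutation p under 0.05. The neocortex markers had r = 0.93 with Sst (permutation p = 0.00576, rho = 0.82 with permutation p = 0.0212), and r = 0.70 (permutation p = 0.111) without the 2 farthest libraries. The same markers had r = 0.89 with Npy (permutation p = 0.0128, rho = 0.67 with permutation p = 0.0641), and r = 0.69 (permutation p = 0.164) without them. With Sstr2 the values were r = 0.96 (permutation p = 0.00326) and rho = 0.90 (permutation p = 0.00882), and r = 0.82 (permutation p = 0.0458) without them. The thalamus markers had r = -0.81 with Sstr4 (permutation p = 0.0169, rho = -0.85 with permutation p = 0.0106), and r = -0.68 (permutation p = 0.0431) without the 2 farthest libraries. For the neocortex list the 2 farthest were Tshr-/- libraries 4 and 5. With the thalamus and habenula markers as a covariate the difference of Npy was -0.55 ± 0.15 (limma, adjusted p = 0.170) and that of Sst -0.27 ± 0.16 (adjusted p = 0.519). With the neocortex markers as a covariate, a fit chosen after seeing the data, the difference of Npy was -0.74 ± 0.08 (limma, adjusted p = 0.0271) and that of Sst -0.47 ± 0.08 (adjusted p = 0.0639).

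**Figure D5:**
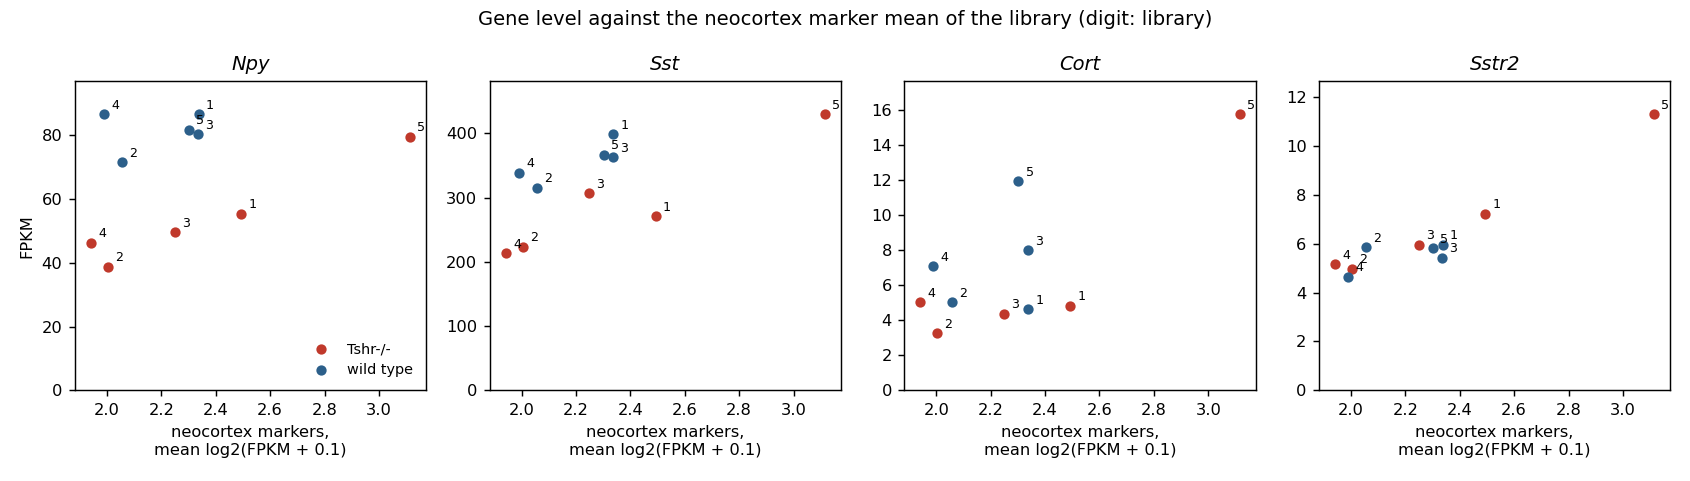
FPKM of Npy, Sst, Cort and Sstr2 against the mean log2(FPKM + 0.1) of the 7 neocortex markers, with 1 point per library coloured by genotype. Tshr-/- library 5 stands apart on the neocortex axis, 0.83 above the mean of all libraries.

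All 7 neocortex markers were tested, with 6 higher and 1 lower on average in Tshr-/- and 0 called; their summed level was 39.5 to 91.1 FPKM in Tshr-/- and 44.7 to 64.8 FPKM in wild type. All 10 thalamus and habenula markers were higher on average, with 0 called and sums of 26.5 to 186 FPKM in Tshr-/- and 21.2 to 111 FPKM in wild type. Of 11 choroid plexus markers 9 were tested, with 8 higher, 0 called and sums of 6.75 to 2272 FPKM in Tshr-/- and 5.15 to 91.2 FPKM in wild type. Of 7 striatum markers 5 were tested, with 4 higher, 0 called and sums of 4.98 to 16.7 FPKM in Tshr-/- and 4.26 to 6.74 FPKM in wild type. Markers of hippocampal principal neurons were lower on average for 8 of 8 dentate granule genes and 6 of 6 CA1 genes, and for 5 of 8 CA3 and CA2 genes, with 0 called in each list. The median log2 difference was -0.42 for the dentate list, -0.59 for CA1 and -0.03 for CA3 and CA2. An unadjusted limma p under 0.05 was found for 6 dentate and 3 CA1 genes, all lower. In the CA3 and CA2 list it was found for 1 lower and 1 higher gene. The part of adjoining or missing tissue in the differences of the 10 genes was not tested beyond the covariate fits.

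Markers of the cells that make these peptides were also measured. Of 8 pan-GABAergic genes, 6 were lower and 2 higher on average, 0 were called and the median log2 difference was -0.17. Gad1, which makes GABA, averaged 32.8 ± 1.496 FPKM in Tshr-/- and 37.5 ± 2.38 FPKM in wild type (SD, n = 5 each), without overlap. Dlx6os1 was also lower without overlap, at 2.457 ± 0.225 FPKM in Tshr-/- and 3.08 ± 0.5235 FPKM in wild type. Of all genes tested, 1.76% lay lower without overlap. Relative to the pan-GABAergic genes, a scaling chosen after seeing the data, the log2 difference was -0.49 ± 0.13 for Npy and -0.21 ± 0.14 for Sst, on a scale where the median of all genes was 0.13. Of 13 somatostatin interneuron markers 10 were tested, with 7 lower, 3 higher and 0 called. Their median log2 difference was -0.04, against -0.01 over all genes tested. Crhbp, which encodes the binding protein for corticotropin-releasing hormone, was the only gene of this list without overlap. It averaged 8.13 ± 1.84 FPKM in Tshr-/- and 14.0 ± 1.78 FPKM in wild type (log2 difference -0.80 ± 0.14, limma adjusted p = 0.089). Sox6 went the other way, at 1.305 ± 0.165 FPKM in Tshr-/- and 1.115 ± 0.0873 FPKM in wild type. Of 9 markers of other interneuron classes 4 were lower, 5 higher and 0 called, with a median log2 difference of 0.03. Pvalb, a calcium-binding protein of fast-spiking cells, averaged 28.9 ± 6.95 FPKM in Tshr-/- and 41.1 ± 9.29 FPKM in wild type. Sncg and Tac1 were higher on average, with overlap. Sncg averaged 5.51 ± 3.18 FPKM in Tshr-/- and 3.27 ± 0.823 FPKM in wild type, and Tac1 2.415 ± 0.701 and 1.78 ± 0.312 FPKM. Whether fewer such cells were sampled was not tested.

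Like the 10 genes themselves, no tested gene of the related signalling lists was called in the fit to all libraries. The other 5 family genes, Pyy, Ppy, Npy4r, Npy6r and Sstr5, were too low to test, at 0.287 FPKM at most. Of 12 genes for peptide processing, storage and breakdown 11 were tested, with 5 lower, 6 higher and 0 called. Pcsk2, a convertase that cuts peptide precursors, averaged 37.8 ± 2.83 FPKM in Tshr-/- and 32.6 ± 0.788 FPKM in wild type, without overlap. Of 11 genes for inhibitory G proteins, GIRK channels and arrestins 10 were tested, with 9 lower, 1 higher and 0 called. Kcnj6, a GIRK channel subunit, averaged 8.36 ± 1.13 FPKM in Tshr-/- and 10.02 ± 0.971 FPKM in wild type. Of 8 genes of the neuronal primary cilium, where the Sstr3 receptor sits, 6 were lower, 2 higher and 0 called.

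Among 15 other hippocampal peptide precursor genes 8 were lower and 7 higher on average, and 1 was called. Penk, the enkephalin precursor gene, fell to 9.22 ± 0.695 FPKM in Tshr-/-, against 16.8 ± 1.87 FPKM in wild type (log2 difference -0.85, limma adjusted p = 0.0127). Its levels did not overlap, at 8.18 to 9.93 FPKM in Tshr-/- and 13.7 to 18.7 FPKM in wild type. The adjusted threshold was passed by 0 lower genes of the table when the second Tshr-/- library, or any of wild-type libraries 2, 3 and 4, was left out. Vgf, a secreted neuropeptide precursor, averaged 192 ± 26.5 FPKM in Tshr-/- and 259 ± 34.9 FPKM in wild type without a call. Tac2, the neurokinin B precursor gene, had 2.30, 15.1, 2.73, 2.17 and 6.32 FPKM in Tshr-/- libraries and 1.29 to 1.73 FPKM in wild-type libraries. Its groups did not overlap, and the log2 difference of 1.43 ± 0.46 was not called (limma, adjusted p = 0.253). The highest value was in Tshr-/- library 2, the highest in thalamus and habenula markers. In Tshr-/- library 5, with 6.32 FPKM, these markers lay 0.63 below the mean of all libraries. In wild-type library 5, with 1.49 FPKM, they lay 1.01 above it. Activity-regulated early genes were lower on average for 14 of 14, where 53.3% of all genes tested were lower. Of these 14, 12 had an unadjusted limma p under 0.05, where 8.38% of all genes had one and were lower. None was called, and the median log2 difference was -0.79.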

How the data were processed

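Hippocampal mRNA was sequenced in 5 Tshr-/- and 5 wild-type libraries, which were unstranded. Per the submitters' processing notes, HISAT2 2.0.5, featureCounts 1.5.0-p3 and the mm10 build were used, and the authors deposited FPKM values per gene. The sources used here name no annotation release.

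The 10 genes and the 16 gene lists were chosen with earlier results of these data known. All 10 genes are named, in each list described up to 3 genes with the smallest p, and for Npy and Sst the 5 genes most like each, of which 1 is not reported here. Genes with a mean of at least 0.5 FPKM (15471) were tested with limma 3.58.1 in R 4.3.3 on log2(FPKM + 0.1), with a variance trend and Benjamini-Hochberg adjustment. Differences are Tshr-/- minus wild type, on a scale that understates the change of low genes. Values were checked as whole reads within 0.01 of a read (100% of values), and voom was run on those reads. Orders and correlations used exact permutation tests (14400 arrangements within genotype) in Python 3.11.15. Adjusted p-values for members are a description. The limma genotype fit was tested on simulated reads with known changes. Alternatives changed the pseudocount, filter, scaling, covariates and libraries.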

Additional observations from a re-analysis of the deposited data

Results flagged for a closer look

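In the 20 groups of 5 libraries examined (10 genes in each genotype), 3 held a library far from the others, where chance gives about 1 in 20 groups. Npy5r was at 1.385 FPKM in Tshr-/- library 5, the lowest of its group, with a gap to the nearest library of 0.824 of the range on the log2 scale, above the critical value of 0.71. Cort was at 15.7 FPKM in the same library, the highest of its group, with a gap of 0.729 of the range. Sstr1 was at 4.45 FPKM in wild-type library 4, the lowest of its group, with a gap of 0.714 of the range.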

How the results depend on the processing

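Of 240 alternative values for the 10 genotype differences, 235 kept their direction and side of the threshold. Npy passed in 2, without Tshr-/- library 5 and with the neocortex covariate, over an adjusted p range of 0.0271 to 0.432. Both settings bear on the same library, since Tshr-/- library 5 was the highest in neocortex markers. The direction turned in 3: Npy5r was 0.0094 without Tshr-/- library 5 (-0.13 to 0.0094 with each library left out) and 0.050 relative to the pan-GABAergic genes, and Cort was 0.13 among the 6 libraries lowest in thalamus markers. The neocortex, pan-GABAergic and 6-library settings were chosen after seeing the data. The cause was not tested. The count of genes called lower and higher (2 and 0) became 6 and 8 with a pseudocount of 0.01, 6 and 7 with a filter at 1 FPKM, 6 and 7 with median-ratio scaling, 9 and 8 with protein-coding genes, 8 and 2 with the thalamus covariate and 11 and 6 with the neocortex covariate. It was 4 lower with no filter, 1 lower with no variance trend, 2 higher with quantile scaling and 6 higher with voom. Leaving out 1 library gave 0 to 5 lower and 0 to 4 higher, with 0 lower when Tshr-/- library 2 or any of wild-type libraries 2, 3 and 4 was missing and 5 lower without Tshr-/- library 5, and it gave 5 to 7 ordered pairs and 0 to 1 tissue relations.

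Over all genes tested, libraries with the same number deviated together weakly or not at all. Their correlations were -0.063, 0.296, 0.0762, 0.169 and -0.0651, and 2 of 5 Tshr-/- libraries correlated best with their own number. With the replicate block 3 genes were called lower and 0 higher, Npy was -0.63 (limma adjusted p = 0.182) and no call among the 10 changed. The block lowered the standard error of Npy, Npy2r, Sst, Cort, Sstr1, Sstr2 and Sstr4, for Npy2r from 0.20 to 0.11. It raised that of Npy1r, Npy5r and Sstr3. An unadjusted limma p under 0.05 was then found for Npy, Npy2r, Sst, Sstr3 and Sstr4, all lower. The share of all genes at that level with the block was not counted, and it was 13% without the block. Npy and Sst had r = 0.92 over 5 pair differences (permutation p = 0.0583).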

Other observations

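The genes whose level over the 10 libraries was most like that of Npy, with the genotype means removed, were Gm11560 (r = 0.98), Fam160a2 (r = 0.98), Pde2a (r = 0.97), Cpne5 (r = 0.96) and Cdk11b (r = 0.96). Gm11560 is annotated as a processed pseudogene, so its reads are uncertain. For Sst they included Rnft2 (r = 0.98), Sirpa (r = 0.98), Cyth2 (r = 0.98) and Pcdhac2 (r = 0.97). Each of these like genes, though not Npy itself, had its highest level in Tshr-/- library 5, the library highest in neocortex markers. Sirpa, for example, was at 72.1 FPKM in that library. Its mean was 60.8 ± 8.05 FPKM in Tshr-/- and 62.4 ± 2.49 FPKM in wild type (SD, n = 5 each). These likenesses were picked as the highest among all genes and carry no test.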
